A study of Homo sapiens with 17 samples.

Results

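The histone genes described here are the 21 of 9699 tabulated transcripts whose symbol begins with HIST and a cluster number, or with H2AF, H1F or H3F. The rule uses the symbol and no measured value. The 13 HIST genes comprise 1 linker histone H1 gene, 4 H2A genes, 6 H2B genes, 1 H3 gene and 1 H4 gene. The other 8, called replacement histone genes below, are H1F0, H1FX, H2AFV, H2AFX, H2AFY, H2AFZ, H3F3A and H3F3B.

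Histones H2A, H2B, H3 and H4 form the protein core around which DNA is wrapped, and H1 binds the DNA between cores. The clustered HIST genes supply histones to newly copied DNA. Their messages are made mainly during S phase and end in a stem-loop rather than a poly(A) tail. Replacement histones are made from polyadenylated messages throughout the cell cycle and enter chromatin independently of DNA copying. H2AFX is an intermediate case, since its gene is known to give an S-phase message with a stem-loop as well as a polyadenylated one. Some HIST genes also give polyadenylated messages, mainly known from cells that have stopped dividing.

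The samples were 9 RNA-Seq and 8 Ribo-Seq libraries of BJ cells, human foreskin fibroblasts immortalized with hTERT, the catalytic subunit of telomerase. Ribo-Seq sequences the messenger fragments that ribosomes protect, so it reads messages being translated. The cells were in 5 states. Proliferating cells were grown under normal conditions, and quiescent cells were depleted of serum. Pre-senescent and senescent cells carried hTERT and a tamoxifen-inducible RASG12V, an activated oncogene, and were given 4-OHT-Tamoxifen for 5 days and 14 days respectively. Transformed cells carried hTERT, knockdowns including that of p16INK4A, SV40 small T and a retroviral pBabe-puro-RASG12V. All were bulk cultures of a single established line.

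Values are FPKM, fragments scaled to transcript length and to the number of mapped reads, which the authors counted per transcript in RNA-Seq and per coding sequence in Ribo-Seq and raised to a floor of 1. Each state has 1 column per layer and sequencer run. Run 1 holds proliferation, quiescence and pre-senescence, and run 2 holds a second proliferation column, senescence and transformation. Of the 12 columns, 5 pool 2 libraries each, so the FPKM used here hold no replicate values within a state and run. No test was made. Each state is set against proliferation of its own run, and a member is counted as higher or lower where it differs by at least 2-fold. Shares of all transcripts are given at this setting. They were not computed for single layers with a minimum of 5 FPKM, on the log2(FPKM + 1) scale or with the control of the other run. The only scale of error is the difference between both proliferation columns. This difference also holds the change of run, which ratios within a run do not, so it is only a rough scale for them. In RNA-Seq the libraries of run 2 were not paired-end, unlike those of run 1. TE, translation efficiency, is log2 of Ribo-Seq FPKM over RNA-Seq FPKM. Where RNA-Seq is at the floor, TE is a lower bound.

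The labels disagree on a pair of Ribo-Seq libraries of run 2. The library titled S carries a proliferation tag, and the library titled C3 carries a senescence tag. They are taken by title here. Spearman's rho across 9699 transcripts, which are not independent replicates, was 0.88 between Ribo-Seq S and RNA-Seq S and 0.85 between Ribo-Seq C3 and RNA-Seq C3. The crossed values were 0.77 for Ribo-Seq C3 with RNA-Seq S and 0.755 for Ribo-Seq S with RNA-Seq C3. MKI67, a proliferation marker, was at the floor of 1.00 FPKM in the columns named S of both layers and at 44.0 (RNA-Seq) and 43.0 (Ribo-Seq) in those named C3. By tag, the Ribo-Seq median of the HIST genes in senescence against proliferation would be 3.86 on the log2 scale instead of -3.86, that of the replacement genes 1.498 instead of -1.498, and the TE median of the HIST genes 1.16 instead of -6.98. The values in transformation would also change, since they use the same control.

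The table keeps no counts, so the number of reads behind a value is not known, and the read totals that the study lists per library were not used here. The columns had 248 to 556 transcripts at the floor. All 8 fibroblast markers checked were in the table, with VIM, a fibroblast filament protein, at 2956 to 4881 FPKM in RNA-Seq. Other fibroblast markers were lower in senescence than in proliferation of run 2 in RNA-Seq, COL1A1 at 51.6 against 1328 FPKM, PDGFRB at 4.49 against 48.45, COL3A1 at 39.2 against 214 and COL1A2 at 531 against 1611, and the part of this in the histone values was not tested. Of the markers of other cell types, 3 of 5 epithelial, 1 of 4 leukocyte and 0 of 3 endothelial genes were listed. Among these, the epithelial KRT18 was at 84.5 to 257 FPKM and KRT8 at 4.84 to 18.8 in RNA-Seq. The leukocyte marker CD68 was at 38.3 to 132. COL1A1, a fibroblast collagen, differed between the proliferation columns, at 371 FPKM in run 1 and 1328 in run 2. KRT19, a keratin, was at 1.00 and 39.8 FPKM in the same columns. CDKN2A, which encodes the knocked-down p16INK4A and another protein, was at 12.6 FPKM in transformed against 6.75 in proliferating cells of run 2 in RNA-Seq and at 5.51 against 8.92 in Ribo-Seq, so its RNA was not lower in transformed cells. HRAS was listed at 2415 and 1284 FPKM in proliferating cells and 312 in transformed cells in RNA-Seq, although the labels name no RAS construct for proliferation.

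In proliferating cells the HIST genes had little RNA-Seq signal and much Ribo-Seq signal, while the replacement genes had a strong signal in both. The median HIST gene stood at 1.42 FPKM in RNA-Seq of run 1 and 2.99 in run 2, and at 221.5 and 436 FPKM in Ribo-Seq. The median replacement gene stood at 110 and 82.9 FPKM in RNA-Seq and at 182 and 187 in Ribo-Seq. The RNA-Seq libraries were made from poly(A)-selected RNA, so by their design they favour the polyadenylated copies of HIST messages. The share of such copies was not measured, and its part in the TE values below was not tested. HIST copies are also near-identical to one another, as are H3F3A and H3F3B to further copies in the genome. Only uniquely mapped reads were counted, so the split among copies is uncertain for each of these genes.

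The table holds only transcripts that passed a minimum of reads in both layers in at least 1 state. A HIST gene with almost no RNA-Seq signal in proliferation can therefore be listed only through a state where it had more. Of the 13 HIST genes, 11 were above the floor in RNA-Seq of each proliferation column, and the choice of rows bears on how many are higher in RNA-Seq elsewhere. HIST genes outside the table were not analysed here.

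**Figure D1:**
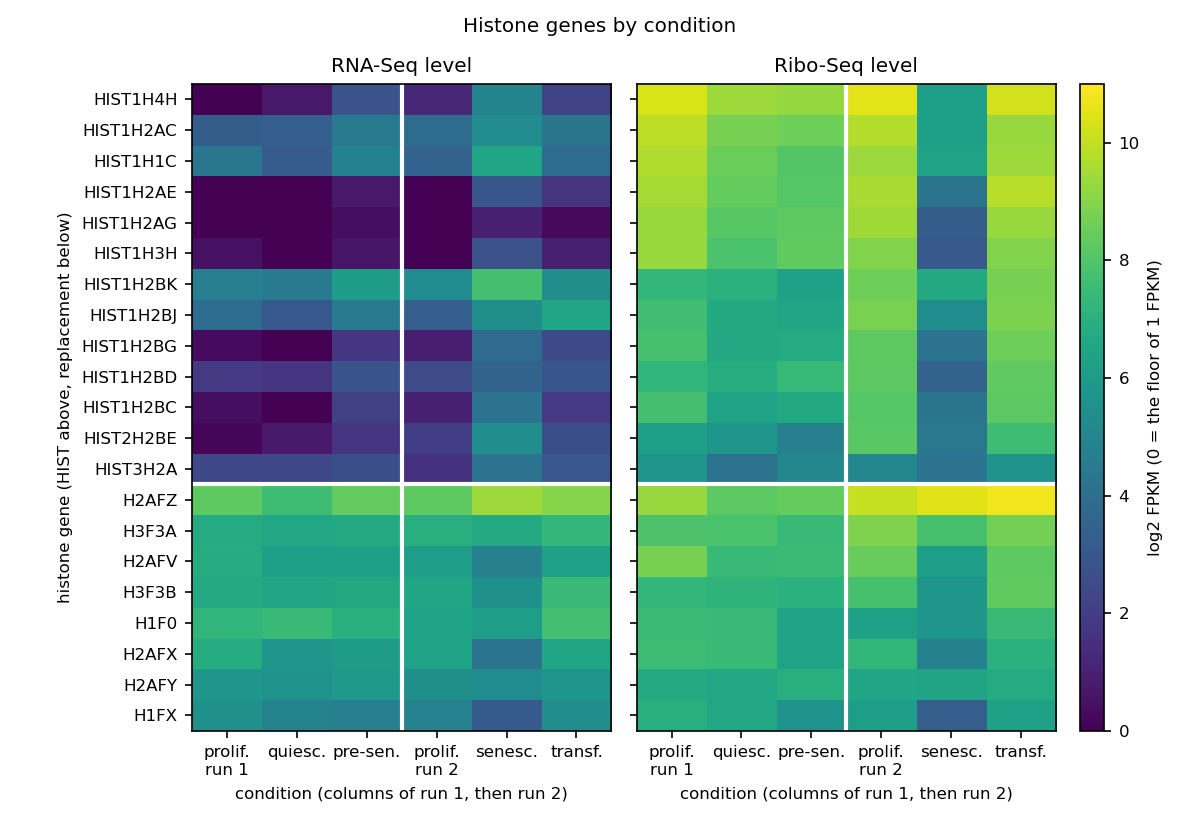
Log2 FPKM of the 21 histone genes in the 6 columns of RNA-Seq (left) and Ribo-Seq (right), where 0 is the floor of 1 FPKM. White lines part the runs and the HIST genes (above) from the replacement genes (below). Senescence is the column in which most HIST genes are lightest in RNA-Seq and darkest in Ribo-Seq.

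Values for single genes follow in a fixed order of states, which is proliferation run 1, proliferation run 2, quiescence, pre-senescence, senescence and transformation. HIST1H1C, the linker histone H1 gene among the HIST members, stood at 20.0, 10.98, 8.93, 28.9, 88.2 and 14.9 FPKM in RNA-Seq. In Ribo-Seq it stood at 816, 645, 364, 267, 82.2 and 675. Its highest RNA-Seq level and its lowest Ribo-Seq level were both in senescence.

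Among the H2A genes, HIST1H2AC stood at 9.50, 14.8, 9.79, 21.6, 39.2 and 18.9 FPKM in RNA-Seq and at 957, 844, 428, 384, 73.4 and 631 in Ribo-Seq. HIST1H2AE stood at 1.00, 1.00, 1.00, 1.67, 7.59 and 3.27 in RNA-Seq and at 736, 759, 342, 278, 19.0 and 890 in Ribo-Seq. HIST1H2AG stood at 1.00, 1.02, 1.00, 1.33, 1.94 and 1.21 in RNA-Seq and at 626, 688, 280.4, 307, 9.51 and 636 in Ribo-Seq. All of these H2A genes had their highest RNA-Seq and their lowest Ribo-Seq value in senescence, although HIST1H2AG was scarcely above the floor in any RNA-Seq column. HIST3H2A, which lies outside the large cluster, stood at 5.20, 2.99, 5.16, 6.21, 18.4 and 7.96 in RNA-Seq and at 52.6, 35.2, 17.5, 34.5, 18.4 and 49.15 in Ribo-Seq. It was the HIST gene with the lowest Ribo-Seq level in both proliferation columns, and its lowest value was in quiescence.

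Of the H2B genes, HIST1H2BK had the highest RNA-Seq level in every column except transformation, at 25.8, 39.7, 24.0, 65.6, 215 and 42.9 FPKM, with 156, 376, 130.5, 78.2, 99.5 and 433 in Ribo-Seq. HIST1H2BJ stood at 14.9, 9.87, 8.22, 23.8, 44.8 and 87.7 in RNA-Seq and at 198, 436, 103, 88.3, 40.4 and 455 in Ribo-Seq. HIST1H2BJ was the HIST gene whose RNA-Seq maximum was in transformed rather than senescent cells. HIST1H2BC stood at 1.33, 1.96, 1.00, 4.2, 18.1 and 3.53 in RNA-Seq and at 215, 274, 82.7, 103, 18.9 and 299.8 in Ribo-Seq. HIST1H2BD stood at 3.59, 5.76, 3.11, 7.35, 11.3 and 7.74 in RNA-Seq and at 151, 299, 114, 166, 10.95 and 318 in Ribo-Seq. HIST1H2BG stood at 1.25, 1.90, 1.00, 3.35, 14.3 and 5.54 in RNA-Seq and at 221.5, 310.2, 98.7, 108, 18.5 and 377 in Ribo-Seq. These H2B genes shared a Ribo-Seq minimum in senescence, except HIST1H2BK, which was lower in pre-senescence. HIST2H2BE, an H2B gene on chromosome 1, stood at 1.11, 4.09, 1.69, 3.13, 41.7 and 6.21 in RNA-Seq and at 73.8, 292, 54.7, 27.7, 21.45 and 192 in Ribo-Seq. It was also the member whose proliferation columns lay furthest apart, by 1.88 on the log2 scale in RNA-Seq and 1.98 in Ribo-Seq.

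HIST1H3H, the H3 gene, stood at 1.42, 1.00, 1.00, 1.56, 6.58 and 1.96 FPKM in RNA-Seq and at 635, 480.2, 233, 320.1, 8.46 and 479.9 in Ribo-Seq. HIST1H4H, the H4 gene, stood at 1.06, 2.35, 1.66, 7.07, 31.4 and 4.71 in RNA-Seq and at 1346, 1484, 661, 606, 74.95 and 1234 in Ribo-Seq. HIST1H4H was the HIST gene with the highest Ribo-Seq level in proliferation, where its RNA-Seq level was near the floor.

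TE placed the HIST genes at the top of the transcriptome in proliferating cells. The 13 members ran from 2.59 (HIST1H2BK) to 10.31 (HIST1H4H) in run 1 and from 3.24 (HIST1H2BK) to at least 9.57 (HIST1H2AE) in run 2. HIST genes held the highest 10 ranks of 9699 in run 1 and the highest 11 in run 2, ahead of ATOX1 at 4.90 and ATP5E at 5.24. The median over HIST genes above the floor was 6.06 (n = 11 genes) and 5.88 (n = 11), beside 0.98 and 1.27 over the 8 replacement genes and 0.35 and 0.40 over all transcripts. In quiescence the median was 5.11 (n = 8), in pre-senescence 4.49 (n = 13) and in transformed cells 5.50 (n = 13). In senescence it was 0.06 (n = 13), beside 0.32 over all transcripts. Over HIST genes with at least 5 FPKM in both layers the medians were 3.74 in proliferation run 1 (n = 5), 5.70 in run 2 (n = 5), 3.65 in quiescence (n = 5), 3.21 in pre-senescence (n = 7), 0.03 in senescence (n = 12) and 5.004 in transformed cells (n = 8).

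Senescent cells were thus the state in which HIST genes did not stand apart in TE. Their values ran from -1.11 (HIST1H2BK) to 2.29 (HIST1H2AG), and 7 of 13 were below the median of all transcripts. None was among the highest 100 transcripts, against 12 in proliferation run 1, 13 in proliferation run 2, 11 in quiescence, 10 in pre-senescence and 11 in transformed cells. The replacement genes kept a median of 0.55 to 1.27 in every column.

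Before the states are compared, the proliferation columns show how far a member can differ between runs with no change of state. Run 2 against run 1, 2 HIST genes differed by at least 2-fold in RNA-Seq (HIST1H4H at 1.15 and HIST2H2BE at 1.88 on the log2 scale), beside 7.99% of all transcripts. In Ribo-Seq 3 HIST genes did so (HIST1H2BJ at 1.14, HIST1H2BK at 1.27 and HIST2H2BE at 1.98), beside 18.9% of all transcripts, and in TE 2 did so (HIST1H2BJ at 1.73 and HIST1H4H at -1.01), beside 9.66%. Of the replacement genes, H1F0 alone passed this size, at -1.20 in Ribo-Seq. The spread between both columns, as an SD per gene, was 0.58 for HIST genes in each of RNA-Seq and Ribo-Seq and 0.46 in TE. For replacement genes it was 0.35, 0.50 and 0.34.

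Senescence against proliferation sets histone messages and their ribosome-protected fragments in oncogene-induced arrest beside those of dividing cells. Ribo-Seq of the HIST genes was far lower in senescent cells, while their RNA-Seq was higher. The Ribo-Seq levels of the 13 genes summed to 496 FPKM against 6922 in proliferation, 13.97-fold lower, while their RNA-Seq levels summed to 539 against 97.4 FPKM, 5.53-fold higher. The median Ribo-Seq difference was -3.86 on the log2 scale, 14.5-fold lower, beside -0.12 over all transcripts. The median RNA-Seq difference was 2.72, 6.58-fold higher, beside -0.02.

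In Ribo-Seq 12 of 13 HIST genes were lower by at least 2-fold, beside 16.8% of all transcripts, and 0 were higher, beside 11.2%. The H2A gene HIST1H2AG was 72.3-fold lower, at -6.18, the second lowest of 9544 transcripts. HIST1H3H was 56.8-fold lower (-5.83) and HIST1H2AE 39.9-fold lower (-5.32). At the other end were HIST1H2BK, 3.78-fold lower (-1.92), and HIST3H2A, whose difference of -0.94 did not reach 2-fold. All 13 differences were larger than the same gene's difference between proliferation columns.

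In RNA-Seq 11 of 13 HIST genes were higher by at least 2-fold, beside 7.19% of all transcripts, and 0 were lower, beside 13.2%. HIST1H4H was 13.4-fold higher (3.74 on the log2 scale), HIST2H2BE 10.2-fold (3.35), HIST1H2BC 9.26-fold (3.21) and HIST1H1C 8.04-fold (3.01). HIST1H2AE and HIST1H3H, at the floor in proliferation of run 2, were at least 7.59-fold and at least 6.58-fold higher. Both had their highest RNA-Seq value in senescence, so they may be in the table only through that state. Their place among the 11 may then be set by the choice of rows. HIST1H2BD at 0.97 and HIST1H2AG at 0.93 did not reach 2-fold.

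At 2-fold, the 2 layers together set these genes apart from the table. Transcripts that were at least 2-fold higher in RNA-Seq and at least 2-fold lower in Ribo-Seq numbered 10 of 9497, or 0.105%, and all 10 were HIST genes. They include HIST1H2AE and HIST1H3H, whose rows may be listed only through senescence. The 3 remaining HIST genes, HIST1H2AG, HIST1H2BD and HIST3H2A, moved in the same directions with 1 layer short of 2-fold. At 1.5-fold the count was 13 HIST genes among 44 transcripts. At 2-fold with the proliferation column of run 1 as control, it was 11 HIST genes among 18 transcripts. With the tags in place of the titles it was 0 HIST genes among 456 transcripts.

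TE was accordingly lower by at least 2-fold in 13 of 13 HIST genes, beside 6.13% of all transcripts, and higher in 0, beside 3.32%. The median difference was -6.98 and the range -8.54 to -3.56. HIST genes held the 13 lowest values of 9497. The next transcript, THOC6, stood at -2.69, above the smallest HIST difference of -3.56 in HIST3H2A. HIST1H3H was at least 374-fold lower and HIST1H2AE at least 303-fold lower, since their RNA-Seq in proliferation was at the floor, and HIST1H4H was 265-fold lower (-8.05). The limit from the choice of rows applies to HIST1H3H and HIST1H2AE here too.

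**Figure D2:**
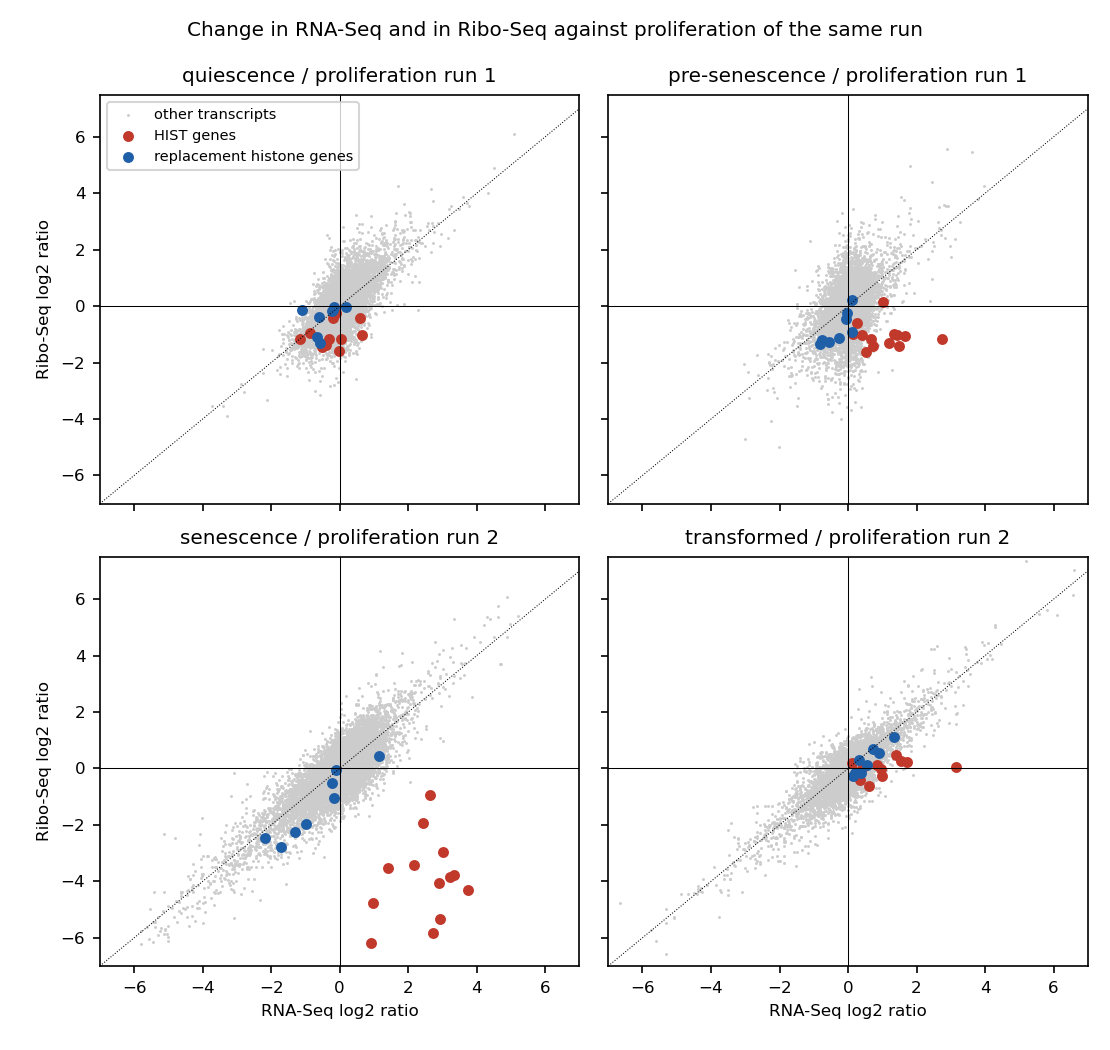
Log2 ratio to proliferation of the same run in RNA-Seq (horizontal) and Ribo-Seq (vertical) for HIST genes (red), replacement histone genes (blue) and other transcripts (grey), with the dotted line marking equal change in both layers. HIST genes with both RNA-Seq columns at the floor are not drawn. In senescence the HIST genes lie in the lower right, apart from other transcripts, with RNA-Seq ratios of 0.93 to 3.74 and Ribo-Seq ratios of -6.18 to -0.94.

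The replacement genes did not follow this pattern in senescence. Their RNA-Seq median was -0.61 and their Ribo-Seq median -1.498, with TE at -0.78. With the proliferation column of run 1 as control, the RNA-Seq median was -1.13 and the TE median -0.19. Their RNA-Seq levels summed to 997 FPKM against 829 in proliferation of run 2, 1.20-fold higher. Their Ribo-Seq levels summed to 1980 against 2480 FPKM, 1.25-fold lower. In RNA-Seq 3 of 8 were lower by at least 2-fold (H2AFX, H1FX and H2AFV), beside 13.2% of all transcripts, and 1 was higher (H2AFZ), beside 7.19%. In Ribo-Seq 5 were lower, beside 16.8%, and 0 higher, beside 11.2%. TE was lower by at least 2-fold in 1, H1FX, at -1.08, beside 6.13%. No replacement gene was at least 2-fold higher in RNA-Seq and lower in Ribo-Seq.

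H1FX, a linker histone, had RNA-Seq levels of 45.8, 29.0, 30.1, 26.03, 8.78 and 42.5 FPKM and Ribo-Seq levels of 124, 70.7, 95.1, 49.0, 10.2 and 77.5, in the order of states given above. In senescence it was 3.30-fold lower in RNA-Seq and 6.96-fold lower in Ribo-Seq. H1F0, the linker histone known from non-dividing and differentiated cells, had 150.2, 82.7, 172, 126, 70.1 and 211 in RNA-Seq and 180.1, 78.6, 177, 82.1, 54.5 and 169 in Ribo-Seq. Its senescence values, -0.24 in RNA-Seq and -0.53 in Ribo-Seq, were within its difference between proliferation columns.

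H2AFX encodes H2A.X, which is phosphorylated beside DNA breaks. It had 113, 83.2, 52.9, 66.9, 18.3 and 92.4 FPKM in RNA-Seq and 184, 154, 169, 81.0, 28.2 and 129 in Ribo-Seq. It was the replacement gene with the lowest RNA-Seq ratio in senescence, 4.55-fold lower (-2.19), and its Ribo-Seq was 5.47-fold lower (-2.45).

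H2AFV and H2AFZ encode the close H2A.Z forms found around active promoters, and they differed in direction in senescence. H2AFV had 111, 69.8, 74.5, 75.5, 28.0 and 79.6 FPKM in RNA-Seq and 431, 343, 174, 179, 71.7 and 309 in Ribo-Seq, with senescence 2.49-fold lower in RNA-Seq and 4.79-fold lower in Ribo-Seq. H2AFZ had 305, 308, 192, 332, 677 and 507 in RNA-Seq and 636, 1059, 299, 336, 1447 and 1726 in Ribo-Seq. H2AFZ was 2.20-fold higher in RNA-Seq in senescence (1.14 on the log2 scale), and its Ribo-Seq difference of 0.45 was smaller than its difference of 0.73 between proliferation columns. In senescent cells H2AFZ alone made up 677 of the 997 FPKM of replacement histone RNA-Seq.

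H2AFY encodes macroH2A1, a large H2A of repressed chromatin. It had 56.3, 44.3, 48.6, 61.55, 40.8 and 55.7 FPKM in RNA-Seq and 105, 89.8, 92.5, 120.4, 86.2 and 110.5 in Ribo-Seq, and its log2 ratios stayed between -0.21 and 0.33 in both layers of all 4 comparisons. H3F3A and H3F3B encode the same protein, H3.3. H3F3A had 109, 120.3, 97.0, 105, 107 and 156 in RNA-Seq and 244, 465, 237, 177, 225 and 416 in Ribo-Seq. H3F3B had 104, 91.8, 91.45, 103, 46.4 and 172 in RNA-Seq and 157, 219.9, 143, 132, 56.9 and 320.5 in Ribo-Seq. In senescence Ribo-Seq was 2.06-fold lower for H3F3A and 3.87-fold lower for H3F3B, while RNA-Seq was -0.17 for the first and -0.98 for the second.

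Within histone families, shares were taken over the genes in the table only, so they are not shares of a whole family. The HIST share of Ribo-Seq signal was lower in senescence than in proliferation of run 2 in each family with both classes. For H2A, with 4 genes of each class, the HIST genes held 58.6% of the summed Ribo-Seq FPKM in proliferation and 6.86% in senescence. For H3, with 1 HIST and 2 replacement genes, the shares were 41.2% and 2.91%. For H1, also with 1 HIST and 2 replacement genes, they were 81.2% and 56%. In RNA-Seq the HIST shares were higher in senescence, at 8.08% against 3.77% for H2A, 4.12% against 0.469% for H3 and 52.8% against 8.95% for H1. In transformed cells the Ribo-Seq shares were 49.3%, 39.4% and 73.3% for H2A, H3 and H1. H2B and H4 have no replacement gene in the table. In bulk cells, fewer cells in S phase and less message per cell cannot be told apart.

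Pre-senescence was sampled 5 days after RASG12V induction, and the question was which changes precede full arrest. HIST genes already had more RNA-Seq and less Ribo-Seq signal than proliferating cells of run 1, with smaller differences than at 14 days. Their Ribo-Seq sum was 2767 FPKM against 6185, 2.24-fold lower, and their RNA-Seq sum 176 against 87.1, 2.02-fold higher. Both time points use different controls and runs, and the difference between them was not tested.

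In RNA-Seq 7 of 13 HIST genes were higher by at least 2-fold, beside 1.82% of all transcripts, and 0 were lower, beside 2.05%. The median was 1.03 and all 13 were above 0, while 4 of 13 were higher by 2-fold on the log2(FPKM + 1) scale and 4 of the 7 genes left by a minimum of 5 FPKM. HIST1H4H was 6.67-fold higher (2.74), rank 13 of 9447 transcripts, and HIST1H2BC 3.16-fold higher (1.66). In Ribo-Seq 9 of 13 were lower by at least 2-fold, beside 10.6%, and 0 were higher, beside 7.31%. The median was -1.07, from -1.61 in HIST1H1C to 0.13 in HIST1H2BD, the single member above 0. Of the 13 Ribo-Seq differences, 10 were larger than that gene's difference between proliferation columns.

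TE was lower by at least 2-fold in 11 of 13, beside 8.97% of all transcripts, and higher in 0, beside 5.7%. With a minimum of 5 FPKM 7 genes remained, and 5 of them were lower. The median was -2.15. HIST1H4H was 14.8-fold lower (-3.89), the second lowest of 9357 transcripts, and HIST2H2BE was 7.52-fold lower (-2.91). HIST3H2A at -0.86 and HIST1H2BD at -0.90 did not reach 2-fold. Transcripts at least 2-fold higher in RNA-Seq and lower in Ribo-Seq numbered 7 of 9357, or 0.0748%, and 5 of them were HIST genes: HIST1H2AC, HIST1H2BC, HIST1H2BG, HIST1H4H and HIST2H2BE. Both differences of HIST2H2BE, 1.496 and -1.42, were smaller than its own between proliferation columns. With the proliferation column of run 2 as control, 4 HIST genes were among 19 such transcripts, and with a minimum of 5 FPKM the count was 2 HIST genes among 2.

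In Ribo-Seq of pre-senescence, 7 of 8 replacement genes were also below 0, and H2AFY was at 0.20. The median was -1.03, close to that of HIST genes, and 4 of 8 were lower by at least 2-fold (H1FX at -1.34, H2AFV at -1.27, H2AFX at -1.19 and H1F0 at -1.13), beside 10.6% of all transcripts. Their RNA-Seq median was -0.15 with 0 of 8 past 2-fold either way, beside 1.82% higher and 2.05% lower. H1F0 stayed within its difference between proliferation columns. TE passed 2-fold in H2AFZ alone, at -1.04, beside 8.97% lower. With the proliferation column of run 2 as control, 2 replacement genes were lower in Ribo-Seq.

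Quiescence was induced by serum depletion, and MKI67 was at 32.8 FPKM in RNA-Seq against 73.9 in proliferation. HIST genes were lower in Ribo-Seq by about the same factor as in pre-senescence, but their RNA-Seq was not higher. The Ribo-Seq sum was 2911 FPKM against 6185, 2.12-fold lower, and the RNA-Seq sum 67.6 against 87.1, 1.29-fold lower. In Ribo-Seq 9 of 13 were lower by at least 2-fold, beside 8.2% of all transcripts, and 0 were higher, beside 9.31%. The median was -1.16, all 13 were below 0, and the range ran from -1.59 (HIST3H2A) to -0.25 (HIST1H2BK). Of these differences 9 were larger than that gene's difference between proliferation columns.

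In RNA-Seq 11 HIST genes were above the floor in quiescence or its control. The median was -0.21, 0 were higher by at least 2-fold, beside 4.12% of all transcripts, and 1, HIST1H1C at -1.16, was lower, beside 2.43%. HIST1H1C was alike in both layers, with -1.16 in Ribo-Seq and 0.00 in TE. TE of the 11 had a median of -0.94. It was lower by at least 2-fold in 4 (HIST1H4H at -1.67, HIST3H2A at -1.58, HIST1H2AC at -1.20 and HIST2H2BE at -1.04), beside 4.12% of all transcripts, and higher in 0, beside 3.73%. Among HIST genes with at least 5 FPKM in 1 of both columns in each layer, the TE median was -0.15, and 2 of these 5 genes, HIST1H2AC and HIST3H2A, were lower by at least 2-fold.

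Among replacement genes in quiescence, Ribo-Seq was lower by at least 2-fold in 2 of 8, H2AFV at -1.31 and H2AFZ at -1.09, beside 8.2% of all transcripts. RNA-Seq was lower in 1, H2AFX at -1.09, beside 2.43%. H2AFX Ribo-Seq differed by -0.12, so its TE was higher by 0.97. The class medians were -0.39 in RNA-Seq, -0.16 in Ribo-Seq and 0.05 in TE. With the proliferation column of run 2 as control, the RNA-Seq median was 0.024 and the TE median -0.35. With that control 1 replacement gene was lower in Ribo-Seq.

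The transformed state is taken as labelled, although CDKN2A RNA-Seq was not lower and HRAS not higher than in proliferating cells. HIST Ribo-Seq stood at the level of proliferating cells of run 2, with a sum of 6670 FPKM against 6922. The median was 0.07, the range -0.61 (HIST2H2BE) to 0.48 (HIST3H2A), and 0 of 13 passed 2-fold in either direction, beside 5.34% of all transcripts higher and 7.45% lower. Of the 13 Ribo-Seq differences, 3 were larger than the gene's own difference between proliferation columns.

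HIST RNA-Seq in transformed cells had a median difference of 0.85, with all 13 above 0, and 7 of 13 were larger than the gene's own difference between proliferation columns. By at least 2-fold 5 were higher, beside 4.97% of all transcripts, and 0 lower, beside 5.39%. HIST1H2BJ stood apart, 8.88-fold higher (3.15), followed by HIST1H2AE, at least 3.27-fold higher (1.71), HIST1H2BG at 1.54, HIST3H2A at 1.41 and HIST1H4H at 1.00. HIST1H4H differed by more than this between proliferation columns. TE was lower by at least 2-fold in 5, beside 2.11% of all transcripts, and higher in 0, beside 1.22%. Of the 8 genes left by a minimum of 5 FPKM, 3 were higher in RNA-Seq and 3 lower in TE, and on the log2(FPKM + 1) scale 3 of 13 were lower in TE. The shares of all transcripts at these settings were not computed. HIST1H2BJ had the lowest TE ratio of 9541 transcripts, -3.09, with a Ribo-Seq difference of 0.06. Its TE was 2.38 in transformed cells, 5.46 in proliferation run 2 and 3.74 in proliferation run 1, so the proliferation columns themselves differed by 1.73. Replacement genes had medians of 0.46 in RNA-Seq, 0.22 in Ribo-Seq and -0.35 in TE. With the proliferation column of run 1 as control, their medians were -0.007 in Ribo-Seq and 0.045 in TE. H1F0 was the 1 member past 2-fold, 2.55-fold higher in RNA-Seq, beside 4.97%, and 2.15-fold in Ribo-Seq, beside 5.34%, and the second of these was smaller than its difference between proliferation columns.

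**Figure D3:**
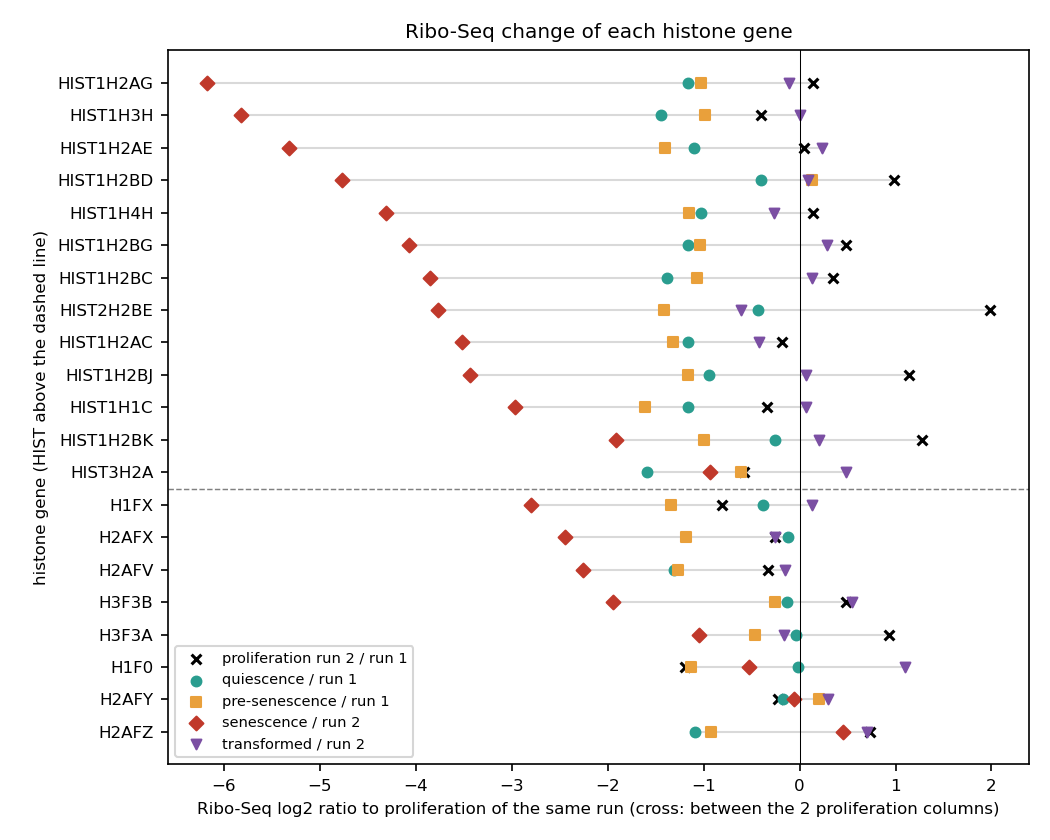
Ribo-Seq log2 ratio of each histone gene to proliferation of the same run, with a black cross for the ratio between the 2 proliferation columns. HIST genes lie above the dashed line and replacement genes below it. Senescence (red diamonds) reaches -6.18 in HIST1H2AG, and the transformed state (triangles) stays within -0.61 to 0.48 for HIST genes.

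Of the HIST genes on chromosome 6, 3 pairs of neighbours in the annotation, HIST1H2BC with HIST1H2AC, HIST1H2BG with HIST1H2AE and HIST1H2BJ with HIST1H2AG, are divergent, an H2B gene on the minus and an H2A gene on the plus strand with a common promoter region. Partners were compared for how alike they were. In senescence the Ribo-Seq ratios were -3.86 for HIST1H2BC and -3.52 for HIST1H2AC. They were -4.07 for HIST1H2BG and -5.32 for HIST1H2AE, and -3.43 for HIST1H2BJ and -6.18 for HIST1H2AG. In RNA-Seq of transformed cells HIST1H2BJ was at 87.7 FPKM and HIST1H2AG at 1.21, against 455 and 636 in Ribo-Seq.

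The regions of these pairs are shown from the H2A side because both genes of a pair start within or beside them. They are RefSeq windows of 300 bases, from 250 before to 50 after the gene start, in GRCh38.p14, while the FPKM were made on hg19. HIST1H2AC lies at chr6:26123922-26124221, HIST1H2AE at chr6:26216671-26216970 and HIST1H2AG at chr6:27132793-27133092, all on the plus strand. HIST1H4H, the gene with the largest RNA-Seq ratio in senescence and the highest Ribo-Seq level in proliferation, lies at chr6:26285485-26285784 on the minus strand. H2AFZ, the replacement gene that was higher in RNA-Seq in senescence, lies at chr4:99950226-99950525 on the minus strand. Capitals mark the TATA box letters TATAAA, the CCAAT box letters CCAAT and the octamer ATTTGCAT on either strand, and run together where TATAAA on both strands overlaps.
HIST1H2AC: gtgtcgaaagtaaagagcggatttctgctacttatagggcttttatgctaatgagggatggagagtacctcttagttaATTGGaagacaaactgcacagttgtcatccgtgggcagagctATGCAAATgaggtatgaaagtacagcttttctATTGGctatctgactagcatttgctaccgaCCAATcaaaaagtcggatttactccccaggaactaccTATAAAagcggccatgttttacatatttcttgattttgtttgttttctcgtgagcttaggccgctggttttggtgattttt
HIST1H2AE: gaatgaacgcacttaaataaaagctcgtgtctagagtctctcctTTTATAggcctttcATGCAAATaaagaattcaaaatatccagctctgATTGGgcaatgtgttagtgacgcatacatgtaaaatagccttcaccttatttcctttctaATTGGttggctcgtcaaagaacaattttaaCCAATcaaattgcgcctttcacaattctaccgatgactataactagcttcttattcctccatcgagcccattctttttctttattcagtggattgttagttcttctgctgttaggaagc
HIST1H2AG: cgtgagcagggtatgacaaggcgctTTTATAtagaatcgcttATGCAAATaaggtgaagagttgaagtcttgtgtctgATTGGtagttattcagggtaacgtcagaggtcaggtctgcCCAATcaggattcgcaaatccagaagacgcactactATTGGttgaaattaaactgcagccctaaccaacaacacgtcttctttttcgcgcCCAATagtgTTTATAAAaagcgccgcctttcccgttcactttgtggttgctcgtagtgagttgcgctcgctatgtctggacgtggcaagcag
HIST1H4H: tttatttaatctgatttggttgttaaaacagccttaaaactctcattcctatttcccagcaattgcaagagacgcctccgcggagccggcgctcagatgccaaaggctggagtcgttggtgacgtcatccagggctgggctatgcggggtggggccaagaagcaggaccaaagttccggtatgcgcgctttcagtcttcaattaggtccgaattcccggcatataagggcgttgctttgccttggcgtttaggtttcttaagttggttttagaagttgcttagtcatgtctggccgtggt
H2AFZ: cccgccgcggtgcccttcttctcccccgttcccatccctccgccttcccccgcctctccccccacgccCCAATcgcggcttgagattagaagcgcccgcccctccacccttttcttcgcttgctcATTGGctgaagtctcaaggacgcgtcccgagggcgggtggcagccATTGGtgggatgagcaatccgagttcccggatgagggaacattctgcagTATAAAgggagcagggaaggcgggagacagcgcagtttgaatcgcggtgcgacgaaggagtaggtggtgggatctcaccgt

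The letters ATTTGCAT, the octamer known from H2B gene promoters, were found on either strand in 8 of 13 HIST windows and in 1 of 7 replacement windows (H3F3B), beside 2.19% of 27305 genes with a window. Among the H2B genes 5 of 6 held it. The windows of divergent partners overlap, and the octamer of each of the 3 H2A genes is the one of its H2B partner, so the 8 windows hold 5 separate octamers. The letters TATAAA were found in 10 of 13 HIST and 4 of 7 replacement windows, beside 14% of all genes, and CCAAT in 12 of 13 and 6 of 7, beside 39.7%. These HIST counts also include matches shared by divergent partners. The only TATAAA letters in the HIST1H2AE window are those of HIST1H2BG on the other strand. The window of HIST1H4H held none of these motifs. Of the 21 members 20 had a window, and H1F0 had none. A match describes the sequence and is not a measured site.

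Other genes of histone supply were taken from lists by function. Of 30 genes for histone message 3' end processing and S-phase histone transcription, 27 were in the table. In senescence 3 of 27 were lower by at least 2-fold in RNA-Seq and 5 in Ribo-Seq, close to the 13.2% and 16.8% of all transcripts. In both layers 0 were higher, beside 7.19% and 11.2%. SLBP, the protein that binds the stem-loop of histone messages, was 1.85-fold lower in RNA-Seq (43.5 to 23.5 FPKM) and 2.41-fold lower in Ribo-Seq (89.5 to 37.2 FPKM) in senescence. CDK2, a kinase of S-phase entry, was 5.18-fold lower in RNA-Seq and 6.47-fold lower in Ribo-Seq. NPAT, the coactivator of histone genes in S phase, was 2.19-fold lower in RNA-Seq and 1.40-fold lower in Ribo-Seq. In pre-senescence 0 of 27 were lower in RNA-Seq and 4 in Ribo-Seq, beside 2.05% and 10.6%. In quiescence 1 and 6 were lower, beside 2.43% and 8.2%, with 2 higher in Ribo-Seq, beside 9.31%, and in transformed cells 0 in either layer, beside 5.39% and 7.45%.

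Histone chaperones, which carry histones to DNA, and exchange factors were in the table for 32 of 35 genes. In senescence 10 were lower by at least 2-fold in RNA-Seq, beside 13.2% of all transcripts, and 13 in Ribo-Seq, beside 16.8%. In either layer 0 were higher, beside 7.19% and 11.2%. ASF1B, a chaperone of H3 and H4, went from 48.3 FPKM in Ribo-Seq of proliferating cells to the floor, at least 48.3-fold lower, and from 21.1 to the floor in RNA-Seq. HJURP, the chaperone of CENPA, went from 29.8 to the floor in RNA-Seq and from 30.8 to the floor in Ribo-Seq. CENPA, the centromeric H3, which has a symbol outside the rule, was at 12.9 and 1.00 FPKM in RNA-Seq and at 16.5 and 1.03 in Ribo-Seq, 16.04-fold lower in senescence. In quiescence 6 chaperone genes were lower in RNA-Seq, beside 2.43%, and 8 in Ribo-Seq with 1 higher, beside 8.2% and 9.31%. In pre-senescence 0 and 6 were lower, beside 2.05% and 10.6%, and in transformed cells 1 and 0, beside 5.39% and 7.45%.

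Of 35 S-phase and replication markers 34 were in the table, and in senescence they were lower in both layers. In senescence 32 were lower by at least 2-fold in RNA-Seq, beside 13.2% of all transcripts, and 31 in Ribo-Seq, beside 16.8%, with medians of -2.96 and -3.21 and a TE median of -0.30. RRM2, a subunit of the enzyme that makes deoxynucleotides, was 55.8-fold lower in RNA-Seq and 74.3-fold lower in Ribo-Seq. In quiescence 20 were lower in RNA-Seq and 16 in Ribo-Seq (medians -1.05 and -0.97), beside 2.43% and 8.2% of all transcripts. In pre-senescence 2 and 13 were lower (-0.51 and -0.82), beside 2.05% and 10.6%, and in transformed cells 1 and 1 (0.07 and -0.09), beside 5.39% and 7.45%. The Ribo-Seq medians of HIST genes in the same order of states were -3.86, -1.16, -1.07 and 0.07. In RNA-Seq of senescent cells the medians had opposite signs, -2.96 for the markers and 2.72 for HIST genes. The part of S-phase cell numbers in the HIST values was not tested.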

How the data were processed

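RNA-Seq and Ribo-Seq of BJ fibroblasts were analysed from the table of FPKM that the authors deposited. The authors isolated poly(A) RNA for RNA-Seq, aligned reads with Bowtie (version not given in the sources used here) and counted uniquely mapped reads on 1 Ensembl transcript per gene, over the whole transcript for RNA-Seq and the coding sequence for Ribo-Seq. They set values under 1 FPKM to 1. The genome build in the submitters' processing notes is hg19. How replicate libraries were pooled into columns is not given in the sources used here. The study calls its replicates biological, but no replicate columns were analysed here. The table gives no counts per gene, and the read totals that the study lists per library were not used here, so no counting interval is given.

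Members were matched by symbol. Log2 ratios of the deposited FPKM were taken to proliferation of the same run, without a pseudocount, and a feature with both columns at the floor was left out of that ratio. In processing the ratios and lists, Python 3.11.15, numpy 2.4.6, pandas 2.3.3 and matplotlib 3.10.9 were used, and the scripts were tested on simulated data. The members and gene lists were chosen with earlier results of these data known. Levels were given for every histone gene. Beyond these, HIST genes were named mainly for the highest levels in either layer, the most extreme TE or the largest ratios. The rule for other lists was up to 4 genes each by RNA-Seq ratio. CENPA was named alone, and SLBP outside the rule, after its values were seen. Promoter windows came from RefSeq (GRCh38.p14). Older symbols were matched through RefSeq synonyms, with a synonym shared by 2 genes settled by removing the gene that matched uniquely. Alternatives tried were log2(FPKM + 1), no filter, a minimum of 5 FPKM, centring on the median, a 1.5-fold threshold, the control of the other run and the condition tags of the Ribo-Seq libraries. A further gene targeted in the transformed cells is not reported here.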

Additional observations from a re-analysis of the deposited data

How the results depend on the processing

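Of 280 alternative values, 229 stayed within the spread between proliferation columns (or within 1.5 times, for counts), 48 moved further and 3 reversed, which means that a median of at least 2-fold changed sign. All medians were unchanged in this sense on centring. Some of the 229 could not change, since a filter on low values leaves genes that lie above it in every column as they were. The spread is that of single genes and was applied to class medians. It comes from the same columns that the control of the other run exchanges. The count of 229 is therefore no measure of how firm the results are. No paired analysis was possible on these FPKM because the replicate libraries were pooled into 1 column per state and run. For the same reason no replicate could be left out. FPKM give no counts per gene, and RNA-Seq values of many HIST genes lie near the floor, so their ratios are imprecise. The cause of the changes below was not tested, apart from the label exchange, which swaps the same 2 columns.

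With the Ribo-Seq libraries S and C3 taken by condition tag, the HIST Ribo-Seq median in senescence reversed to 3.86 with 0 genes lower, the TE median to 1.16 with 1 lower, and the replacement Ribo-Seq median to 1.498 with 0 lower. In transformed cells the HIST Ribo-Seq median became 3.98 and the TE median 2.81 with 0 lower, while the replacement medians became 1.87 in Ribo-Seq and 1.05 in TE. The replacement TE median in senescence became 2.08. These TE medians, -0.93, -0.35 and -0.78 by title, also changed sign. Genes higher in RNA-Seq and lower in Ribo-Seq in senescence numbered 0 HIST genes and 456 transcripts.

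At 1.5-fold, HIST genes higher in RNA-Seq were 2 in quiescence and 8 in transformed cells, beside 11% and 13.3% of all transcripts, 1 was lower in Ribo-Seq in transformed cells, beside 15.8%, and 7 (quiescence) and 9 (transformed) were lower in TE, beside 13.9% and 10.6%. Genes opposite in both layers were 8 HIST genes among 36 transcripts in pre-senescence and 13 HIST genes among 44 transcripts in senescence. With log2(FPKM + 1), 4 HIST genes were higher in RNA-Seq in pre-senescence, 3 were opposite among 4 transcripts, the senescence TE median was -6.40 and 3 were lower in TE in transformed cells. On centring, 3 HIST genes were opposite in pre-senescence.

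With at least 5 FPKM, 4 of 7 HIST genes (pre-senescence) and 3 of 8 (transformed) were higher in RNA-Seq, the TE median was -0.15 in quiescence with 2 lower and -6.48 in senescence, 5 (pre-senescence) and 3 (transformed) were lower in TE, and 2 HIST genes were opposite among 2 transcripts in pre-senescence. HIST TE levels were then 3.74 in proliferation run 1, 3.65 in quiescence, 3.21 in pre-senescence and 5.00 in transformed cells, and with no filter 6.66 in proliferation run 1.

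With the control of the other run, the replacement RNA-Seq medians were 0.024 in quiescence and -1.13 in senescence, the counts lower in Ribo-Seq 1 in quiescence and 2 in pre-senescence, and the TE medians -0.35 in quiescence, -0.19 in senescence and 0.045 in transformed cells. Opposite transcripts numbered 19 in pre-senescence and 18 in senescence. The settings for genes opposite in both layers were chosen after seeing the data. For single layers, shares of all transcripts were computed only at the main setting and at 1.5-fold.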
